A study of Sparassis latifolia with 12 samples.

Results

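ERG13 (EVM0005394) and the long non-coding RNA (lncRNA) XLOC_002302 are 1 mRNA and 1 lncRNA of the 14106 genes in the deposited tables, which hold 13103 mRNAs and 1003 lncRNAs. They were taken by name, because the study listed XLOC_002302 as the cis lncRNA of ERG13, which means that both are encoded close together on the genome. The question was how each ran through cold storage, library by library, and whether the 2 moved together among libraries of the same day. Fruiting bodies of the edible mushroom *Sparassis latifolia*, strain Minxiu No.1, were packed in oriented polypropylene (OPP) film and stored at 4 ℃. Group A was frozen on day 0 (fresh), group B on day 8, group C on day 16 and group D on day 24, with 3 libraries in each group. Strain, packing and temperature were shared by all groups, so the fresh bodies were the only control, and no group kept unpacked or at another temperature was analysed here. Ribosomal RNA was removed from total RNA before library preparation, with a kit that keeps the strand of the transcript.

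ERG13 encodes hydroxymethylglutaryl-CoA synthase, which in *Saccharomyces cerevisiae* joins acetyl-CoA to acetoacetyl-CoA in an early step of the mevalonate pathway. That pathway supplies the isoprene units from which ergosterol is built, the main sterol of fungal membranes. A cis lncRNA is one transcribed near the gene that it is paired with, and some such RNAs affect the transcription of that gene while others have no known effect on it. Class, length, strand and distance to ERG13 are not reported here for XLOC_002302. The kit kept the strand, but no source used here says whether the estimates used it, so reads of overlapping transcripts on the other strand may not have been told apart. Nothing in the labels says which replicates came from separate fruiting bodies, and p-values measure only the spread between these libraries, which may be technical.

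ERG13 and XLOC_002302 were both highest in fresh fruiting bodies and lower on every stored day, and their fresh libraries spread widely in different orders. Values are FPKM, fragments scaled for transcript length and for the depth of the library, and those of mRNAs and of lncRNAs were normalized separately, so that a level of ERG13 cannot be set directly against a level of XLOC_002302. In group A, ERG13 was at 349 FPKM in replicate 1, 70.6 in replicate 2 and 435 in replicate 3. Replicate 2 of day 0 was thus far below the other fresh libraries. In group B, ERG13 was at 48.4, 58.6 and 75.4 FPKM in replicates 1, 2 and 3. Group C held ERG13 at 38.9, 39.2 and 57.0 FPKM. In group D, the 3 libraries gave 56.9, 35.6 and 56.2 FPKM for ERG13. Fresh and stored libraries overlapped at a single point, where replicate 2 of day 0 lay below replicate 3 of day 8. All the other stored libraries, 8 of 9, were below every fresh one. Averaged by group, ERG13 stood at 285 ± 190, 60.8 ± 13.6, 45.1 ± 10.4 and 49.5 ± 12.1 FPKM on days 0, 8, 16 and 24 (SD, n = 3 each).

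XLOC_002302 was at 1702 FPKM in replicate 1 of day 0, 394 in replicate 2 and 264 in replicate 3. Its highest fresh library was therefore replicate 1 and its lowest was replicate 3, the library in which ERG13 was highest. In group B, XLOC_002302 was at 147.0, 146.7 and 48.0 FPKM. Group C gave 161, 197 and 136 FPKM for the lncRNA, and group D gave 66.5, 54.5 and 48.4. Every one of the 9 stored libraries lay below the lowest fresh library, and groups C and D did not overlap either. Averaged by group, XLOC_002302 stood at 787 ± 795, 114 ± 57.0, 165 ± 30.7 and 56.4 ± 9.20 FPKM on days 0, 8, 16 and 24 (SD, n = 3 each). On day 0 the SD was as large as the mean, because replicate 1 was 6.44 times replicate 3.

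**Figure D1:**
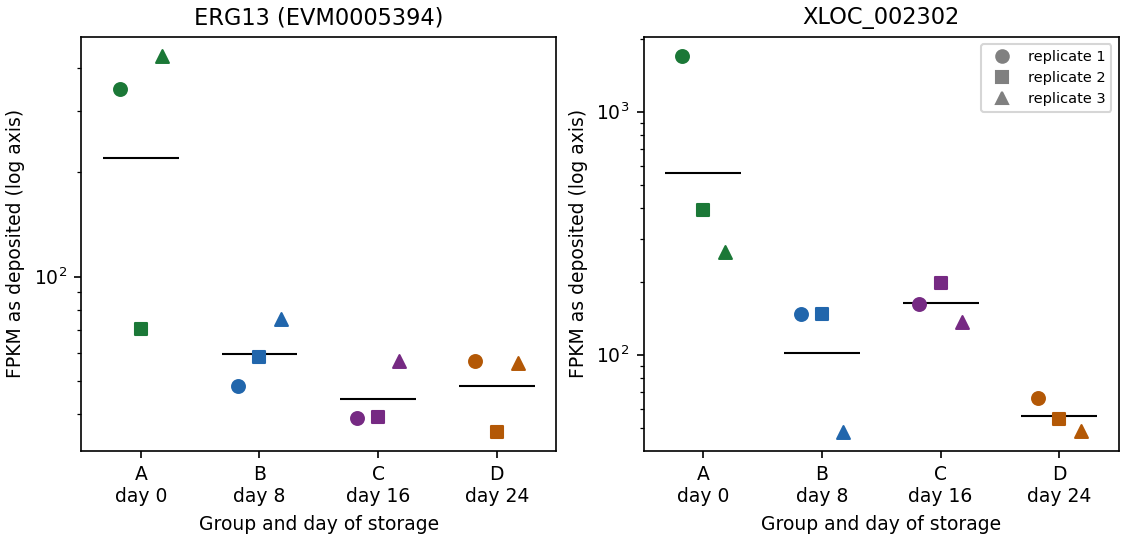
FPKM as deposited (log axis) of ERG13, left, and XLOC_002302, right, by group and day of storage. Each point is 1 library, with the replicate given by its shape, and the line is the geometric mean of the day. ERG13 is lowest of the fresh libraries in replicate 2 (70.6 FPKM), while XLOC_002302 stands highest in replicate 1 of day 0 (1702 FPKM) and every stored library lies below the fresh ones.

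The position of each transcript among the others of its own table tells the same course without a scale. ERG13 ranked 404, 2295 and 199 of 13103 mRNAs in the fresh libraries. In the stored libraries its rank lay between 2107 and 4179. XLOC_002302 ranked 30, 70 and 90 of 1003 lncRNAs in the fresh libraries and between 137 and 399 in the stored ones. By stored day, XLOC_002302 ranked 196, 188 and 399 on day 8, 178, 137 and 194 on day 16, and 347, 372 and 375 on day 24. The ranks of XLOC_002302 in fresh and stored libraries did not overlap, whereas those of ERG13 overlapped through replicate 2 of day 0.

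ERG13 fell on all 3 stored days against day 0 in a limma fit of all 12 libraries. The fit used log2(scaled FPKM + 1), where scaling divides each library by a factor that matches the typical mRNA between libraries. To be called, a gene had to pass a Benjamini-Hochberg adjusted p of 0.05 and to differ by 1 or more on the log2 scale. On day 8 the log2 fold change was −1.90 (SE 0.545, 95% interval −3.09 to −0.70, adjusted p = 0.0141, limma), or 3.73-fold lower. On day 16 it was −2.30 (SE 0.545, −3.49 to −1.10, adjusted p = 0.00503, limma), or 4.91-fold lower. On day 24 it was −2.19 (SE 0.545, −3.38 to −0.99, adjusted p = 0.0162, limma), or 4.56-fold lower. ERG13 was 1 of many mRNAs called lower, which were 16.8% of the 10962 mRNAs tested on day 8, 16.7% on day 16 and 6.8% on day 24. The calls on days 8 and 24 were lost when replicate 1 or replicate 3 of day 0 was left out. On day 8 the log2 fold changes were then −1.57 (adjusted p = 0.0562, limma) and −1.41 (adjusted p = 0.0579, limma). On day 24 they were −1.85 (adjusted p = 0.0626, limma) and −1.70 (adjusted p = 0.0560, limma), and the call was also lost without replicate 2 of day 24 (−1.96, adjusted p = 0.0598, limma). A fit of only the 2 days compared lost the calls on day 8 (adjusted p = 0.0647, limma) and day 24 (adjusted p = 0.0717, limma). Without replicate 2 of day 0 the differences were −2.72, −3.12 and −3.01 on days 8, 16 and 24.

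Among the stored days no difference of ERG13 passed the test. Day 16 minus day 8 was −0.40 on the log2 scale (95% interval −1.59 to 0.79, adjusted p = 1, limma), day 24 minus day 8 was −0.29 (−1.49 to 0.90, adjusted p = 0.696, limma) and day 24 minus day 16 was 0.11 (SE 0.545, adjusted p = 0.900, limma). The intervals still allow changes of more than 1 on the log2 scale, so the stored levels were not shown to be equal. The fit shares 1 spread per gene over all days. The log2 SD of ERG13 was 1.43 on day 0 and 0.330, 0.300 and 0.386 on days 8, 16 and 24. The SE of 0.545 thus carries the fresh spread into comparisons of stored days, and averages it down in those against day 0. Between days 8 and 16, 0 of 10962 mRNAs were called (0%) by limma, with 537 at an unadjusted p under 0.05. Between days 8 and 24 the share called either way was 23.6%, and between days 16 and 24 it was 18.6%. Sequencing quality also differed by day. The study lists a larger share of high-quality bases for every library of days 8 and 16 than for any of days 0 and 24. Day and sequencing cannot be told apart in these counts. The same holds for ERG13 and XLOC_002302 on days 8 and 16 against day 0.

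XLOC_002302 also fell on all 3 stored days against day 0 in the fit of the lncRNAs. The log2 fold change was −2.49 on day 8 (SE 0.588, 95% interval −3.77 to −1.21, adjusted p = 0.00416, limma), or 5.62-fold lower. On day 16 it was −1.78 (SE 0.588, −3.06 to −0.51, adjusted p = 0.0233, limma), or 3.44-fold lower. On day 24 it was −3.33 (SE 0.588, −4.61 to −2.05, adjusted p = 0.00459, limma), or 10.05-fold lower. Lower calls made up 32.9% of the 1002 lncRNAs tested on day 8, 30.2% on day 16 and 4.69% on day 24. The call on day 16 was lost without replicate 1 of day 0 (−0.98, adjusted p = 0.0853, limma), without replicate 1 of day 16 (adjusted p = 0.0549, limma) and without replicate 3 of day 16 (adjusted p = 0.0713, limma). Those on days 8 and 24 held without each library in turn, but without replicate 1 of day 0 the log2 fold changes were smaller, at −1.69 on day 8 and −2.52 on day 24.

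Between stored days the lncRNA did not pass the test in the fit of 12 libraries. That fit shares its spread over all days. The log2 SD of XLOC_002302 was 1.42, 0.902, 0.270 and 0.229 on days 0, 8, 16 and 24. Day 16 minus day 8 was 0.71 (adjusted p = 0.847, limma), and 4 of 1002 lncRNAs were called either way (0.399%). Day 24 minus day 8 was −0.84 (adjusted p = 0.263, limma), beside 36.7% of lncRNAs called. Day 24 minus day 16 was −1.54 (95% interval −2.82 to −0.27, adjusted p = 0.0633, limma), beside 26.7% called, although the 2 groups did not overlap. That difference passed in a fit of only days 16 and 24 (adjusted p = 0.00306, limma), after quantile normalization (adjusted p = 0.0405, limma) and without replicate 1 of day 0 (adjusted p = 0.0121, limma), replicate 3 of day 0 (adjusted p = 0.0480, limma) or replicate 3 of day 8 (adjusted p = 0.0402, limma).

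The values of both tables turned out to be whole multiples of what 1 read was worth in each library, so whole read numbers could be recovered for all 12475 mRNAs and 996 lncRNAs above 0 in at least 4 libraries, within 0.002 of a whole number. The recovered numbers are the smallest that fit, and whether they count reads or fragments is not known. ERG13 had 23678, 4244 and 30640 reads on day 0. On day 8 it had 4554, 4577 and 4650, on day 16 it had 2866, 2332 and 3012, and on day 24 it had 3486, 2181 and 3136. XLOC_002302 had 6903, 1577 and 1217 reads on day 0. It had 369, 300 and 88 on day 8, 381, 432 and 205 on day 16, and 296, 229 and 243 on day 24. The exact 95% Poisson interval of the lowest number, 88 reads, ran from 70.6 to 108, and such intervals cover counting error only. To either side of the number of reads, the intervals of XLOC_002302 reached 2.37% to 21.5% of it on average, far less than the spread of its fresh libraries.

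What 1 read was worth changed differently in the 2 tables. Relative to the geometric mean of day 0, 1 read of the lncRNA table was worth 0.958 to 1.07 times that of the mRNA table in the fresh libraries. On day 8 this was 2.15 to 2.44 times, on day 16 it was 1.74 to 2.24 times and on day 24 it was 0.710 to 0.931 times. A lncRNA with the same number of reads per mRNA read thus got a higher FPKM on days 8 and 16 than on day 0. No source used here says what the authors divided by in each table. Put on the denominators of the mRNA table, XLOC_002302 was at 1593, 411 and 271 rescaled FPKM on day 0. It was at 61.4, 60.2 and 22.3 on day 8, at 81.1, 114 and 60.8 on day 16 and at 75.7, 58.5 and 68.2 on day 24.

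**Figure D2:**
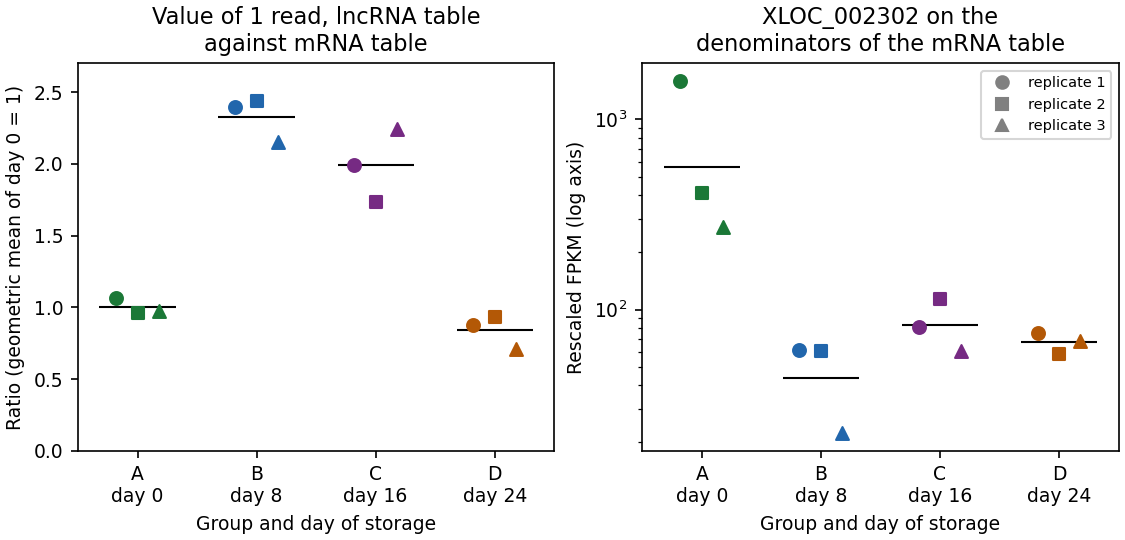
Left, the value of 1 read in the lncRNA table against that in the mRNA table, relative to the geometric mean of day 0, for each library; right, XLOC_002302 in rescaled FPKM (log axis) on the denominators of the mRNA table. Points are libraries and lines are geometric means of the day. The value of a read lies between 1.74 and 2.44 on days 8 and 16, and the 9 stored libraries of XLOC_002302 stay below the 3 fresh ones after rescaling.

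On this common scale, chosen after the data were seen, the loss from day 0 stayed and the order of the stored days did not. The means were 758 ± 727, 48.0 ± 22.2, 85.2 ± 26.7 and 67.4 ± 8.63 rescaled FPKM on days 0, 8, 16 and 24 (SD, n = 3 each). XLOC_002302 minus day 0 came to −3.69 on the log2 scale on day 8 (adjusted p = 0.000183, limma), −2.76 on day 16 (adjusted p = 0.00148, limma) and −3.07 on day 24 (adjusted p = 0.00413, limma). On that scale 57.7% of the lncRNAs tested were called lower on day 8, 50.6% on day 16 and 3.49% on day 24. Day 24 minus day 8 turned from −0.84 to 0.61 (adjusted p = 0.332, limma), day 24 minus day 16 shrank from −1.54 to −0.31 (adjusted p = 0.630, limma), and groups C and D overlapped. Ranks of XLOC_002302 among the lncRNAs of a library, which this rescaling cannot change, did not overlap between groups C and D. The typical lncRNA shifted too. The median log2 fold change of all lncRNAs tested went from −0.40 to −1.51 on day 8, from −0.33 to −1.25 on day 16 and from −0.08 to 0.18 on day 24. Rescaling divided every lncRNA of a library by the same factor, so XLOC_002302 and that median were bound to shift nearly together. The difference of XLOC_002302 from that median, as deposited and rescaled, is thus not a separate result. The differences were −2.09 and −2.18 on day 8, −1.46 and −1.51 on day 16, and −3.25 on day 24 on both scales. Whether RNA came from fewer cells or each cell held less of it cannot be told apart in bulk fruiting bodies.

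The ratio of the 2 transcripts spread widely among the fresh libraries, and no difference between days passed the test. For every 100 reads of ERG13, XLOC_002302 had 29.2, 37.2 and 3.97 reads on day 0. On day 8 it had 8.10, 6.55 and 1.89, on day 16 it had 13.3, 18.5 and 6.81, and on day 24 it had 8.49, 10.5 and 7.75. Replicate 3 had the lowest number on all 4 days. Since transcript lengths are not known, these are ratios of reads and not of molecules. The log2 of ERG13 reads over lncRNA reads was 2.62 ± 1.77, 4.43 ± 1.13, 3.07 ± 0.736 and 3.50 ± 0.225 on days 0, 8, 16 and 24 (SD, n = 3 each), and all days overlapped. An exact permutation test of the F statistic over the 15400 ways to part 12 libraries into 4 days gave F = 1.42 and p = 0.315, with 34.8% of the variance between days.

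As deposited, the FPKM of XLOC_002302 divided by that of ERG13 was 4.88, 5.57 and 0.608 on day 0. It was 3.04, 2.50 and 0.637 on day 8, 4.15, 5.04 and 2.39 on day 16, and 1.17, 1.53 and 0.861 on day 24. This ratio carries the separate normalization of the 2 tables. On the log2 scale, with ERG13 over the lncRNA, the day means were −1.34 ± 1.79, −0.75 ± 1.21, −1.86 ± 0.551 and −0.20 ± 0.406 (SD, n = 3 each). The exact permutation test gave F = 1.20 and p = 0.367, against a smallest possible p of 6.49e-05, and 31.1% of the variance lay between days. Without replicate 3 of day 0, F was 4.57 (exact permutation p = 0.0580). Days 16 and 24 did not overlap on this ratio, with a difference of 1.65, and they overlapped on the ratio of reads. No difference in the ratio between days was thus detected on either scale.

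**Figure D3:**
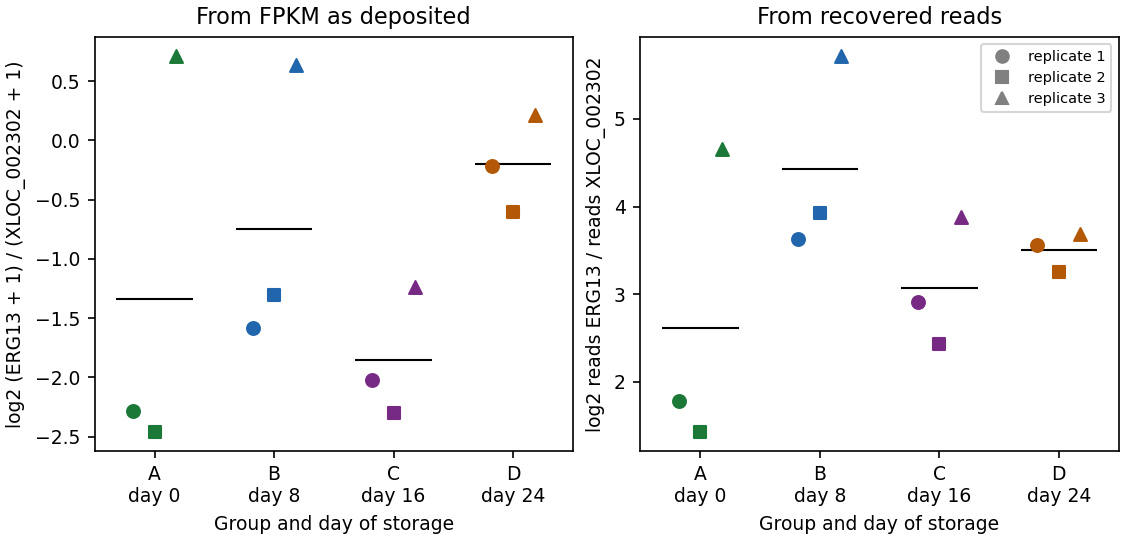
The log2 ratio of ERG13 to XLOC_002302 in each library by day, left from FPKM as deposited with 1 added to each value and right from recovered reads. Points are libraries and lines are day means. Replicate 3 lies above the other libraries of its day in every group, and the range of day 0 alone covers all the other libraries on the left and all but replicate 3 of day 8 on the right.

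No joint movement of the 2 transcripts among libraries of a day was detected. Each value was taken as its deviation from the mean of its day, on log2(scaled FPKM + 1), and libraries were permuted within days. Pearson's r over the 12 libraries was 0.0419 (exact permutation p = 0.985, 1296 arrangements, smallest possible p 0.000772), and Spearman's rho was −0.203 (exact permutation p = 0.694). Without replicates 1 and 3 of day 0, the libraries farthest from the median of the lncRNA deviations, r was −0.570 (n = 10, exact permutation p = 0.157). The 1 fresh library left then equals its own day mean, so this value rests on the 9 stored libraries. The sign thus rested on fresh libraries. Deviations of ERG13 were largest in these, so their few orders largely set r and the test had little power to detect joint movement. Without replicate 3 of day 0, r was 0.484 and the exact permutation p was still 0.924. In replicate 1 of day 0 both transcripts were above their day means, in replicate 2 both were below, and in replicate 3 ERG13 was above while the lncRNA was below. On the common denominators r was 0.0318 (exact permutation p = 0.981) and rho −0.168 (exact permutation p = 0.733).

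Taken in pairs of libraries within a day, ERG13 and XLOC_002302 ranked them in the same order in 3 of 12 pairs, of which 1 of 3 was on day 0, 0 of 3 on day 8, 0 of 3 on day 16 and 2 of 3 on day 24. On the common denominators this was 1 of 3 on day 0, 0 of 3 on day 8, 0 of 3 on day 16 and 3 of 3 on day 24. Against ERG13, 47.2% of the 1002 lncRNAs tested had a lower within-day r than XLOC_002302. Against XLOC_002302, 54.7% of the 10962 mRNAs tested had a lower r than ERG13. The pair thus stood in the middle of both distributions.

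**Figure D4:**
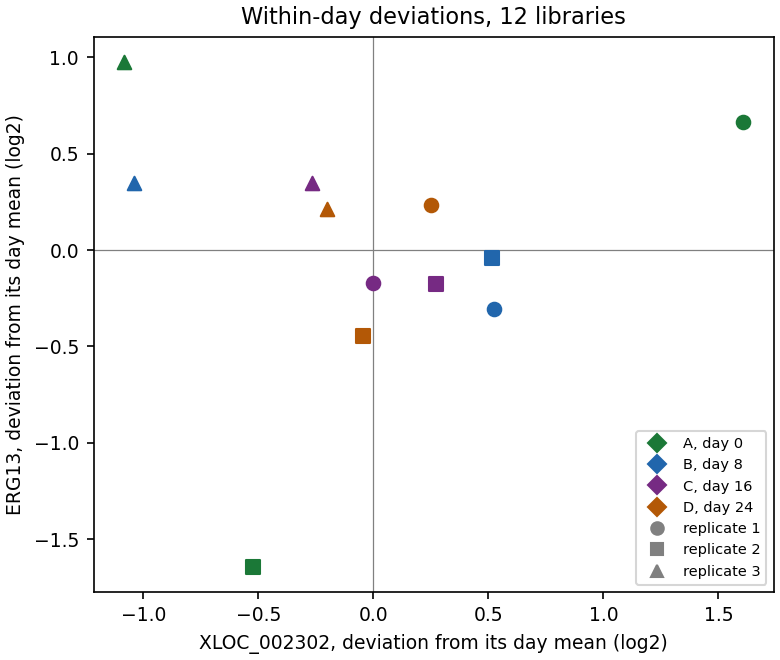
Deviation of ERG13 from its day mean against that of XLOC_002302, both on log2(scaled FPKM + 1), for the 12 libraries. Colour gives the day and shape the replicate. The fresh libraries lie farthest out in 3 different quadrants (r = 0.0419 over all 12), while the libraries of days 8 and 16 run from upper left to lower right.

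Over the 6 libraries of days 8 and 16, the 2 ran in opposite directions. The choice of these days was made with earlier results of these data known, and the other pairs of days were not tested in this way. There r was −0.876 (exact permutation p = 0.00278, 720 orders) and rho −0.943 (exact permutation p = 0.0167). ERG13 was highest and XLOC_002302 lowest in replicate 3 of day 8, and ERG13 was low and XLOC_002302 highest in replicate 2 of day 16. Without those 2 libraries, the farthest from the median of the lncRNA, r was −0.908, but with 4 libraries the exact permutation p was 0.0833. With each library left out in turn r stayed between −0.928 and −0.845. On the common denominators r was −0.927 (exact permutation p = 0.00417). After removal of the day means it was −0.818 (exact permutation p = 0.0278, 36 arrangements, the smallest p they can give). Over the 2 relations tested, the adjusted p was 0.985 for the 12 libraries and 0.00556 for these 6. The latter exchanges libraries between the days, and with the day means removed the adjusted p was 0.0556, so the relation did not pass within days after adjustment. For comparison, 23 of the 915 lncRNAs that varied over these libraries (2.51%) were at or below it against ERG13. Of 10826 mRNAs, 564 (5.21%) were at or below it against XLOC_002302. In either direction, 32 of the lncRNAs (3.50%) and 1054 of the mRNAs (9.74%) had an r at least as far from 0. Replicate 3 of day 8 held 88 reads of the lncRNA, the fewest of the 12 libraries.

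The other ergosterol mRNAs that the study names were also highest in fresh fruiting bodies and low in replicate 2 of day 0. The study chose them on these samples, so their direction is not independent evidence. They are ERG25 (EVM0000111), in yeast a sterol methyl oxidase, ERG3 (EVM0012147), in yeast a sterol desaturase, ERG4 (EVM0003490), in yeast the sterol reductase of the last step, and EVM0000659 and EVM0004880, which the sources used here give no enzyme name. All 5 were called lower on days 8, 16 and 24 against day 0, with medians of −2.10, −2.52 and −2.27 on the log2 scale beside −0.02 over all mRNAs tested on each day. Of all mRNAs, 16.8%, 16.7% and 6.8% were called lower on these days. In a fit of only days 0 and 8, 3 of the 5 were called. Between stored days 0 of the 5 were called by limma, beside 0% of all mRNAs for day 16 minus day 8, 23.6% for day 24 minus day 8 and 18.6% for day 24 minus day 16.

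ERG25, the most abundant of them, was at 650, 230 and 607 FPKM on day 0. It was at 68.5, 72.6 and 74.4 FPKM on day 8, 58.8, 63.4 and 67.3 on day 16, and 101, 121 and 143 on day 24. No stored library reached the fresh ones. ERG3 was at 174, 70.4 and 263 FPKM on day 0, and its stored libraries lay between 14.4 and 41.7. ERG4 was at 192, 44.9 and 157 FPKM on day 0, and between 15.6 and 33.2 in storage. EVM0004880 was at 258, 50.6 and 189 FPKM on day 0 and between 25.9 and 49.4 in storage. EVM0000659 was at 240, 74.0 and 203 FPKM on day 0 and between 43.1 and 74.6 in storage, so that, like ERG13, it overlapped through replicate 2 of day 0.

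**Figure D5:**
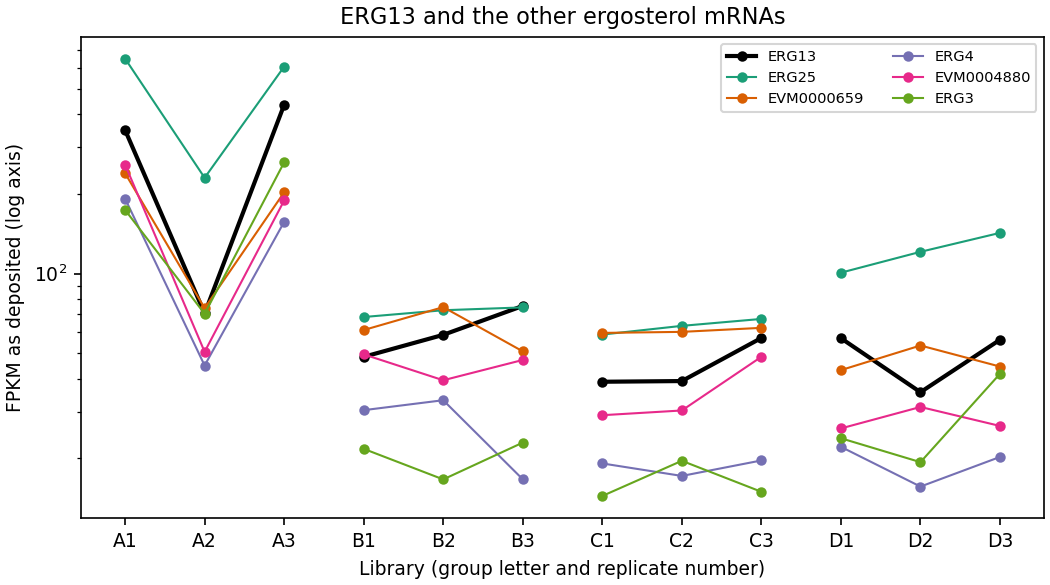
FPKM as deposited (log axis) of ERG13 and the 5 other ergosterol mRNAs in each of the 12 libraries, named by group letter and replicate number. Lines join libraries of a group only to help the eye, since replicates have no order. All 6 mRNAs are lowest of the fresh libraries in A2 (ERG13 70.6 FPKM) and lower in storage than in A1 and A3.

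Replicate 2 of day 0 was the lowest fresh library for all 6 ergosterol mRNAs, and it was the lowest for 40.5% of all mRNAs tested. The mean of the other fresh libraries was 5.55 times replicate 2 for ERG13, 4.42 for EVM0004880, 3.89 for ERG4, 3.11 for ERG3, 2.99 for EVM0000659 and 2.73 for ERG25. ERG13 thus had the widest gap of the 6. Their within-day r with ERG13 was 0.898 for ERG25, 0.865 for EVM0004880, 0.833 for ERG3, and 0.786 for both ERG4 and EVM0000659. With XLOC_002302 the same mRNAs gave −0.0712 for ERG3 to 0.532 for ERG4. ERG13 had its largest deviation from a day mean in replicate 2 of day 0 (−1.64 on the log2 scale), the library low for all 6. The r values with ERG13 thus lean on that library, and r over the stored libraries alone is not given. These correlations over 12 libraries of 4 days are descriptions, and the values come from the same libraries.

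The study also lists 15 trans lncRNAs for ERG13, lncRNAs anywhere in the genome that it paired with ERG13 by correlation over these same samples. Against day 0, 14 of 15 were called lower on day 8, 15 on day 16 and 9 on day 24, with medians of −2.32, −2.11 and −1.61 beside −0.40, −0.33 and −0.08 over all lncRNAs, of which 32.9%, 30.2% and 4.69% were called lower. Within days their r with ERG13 ran from 0.00415 for XLOC_001848 to 0.714 for XLOC_005934, with a median of 0.442. Since correlation with ERG13 chose these lncRNAs and position chose XLOC_002302, the 2 sets of r cannot be compared as a result. All 15 had their lowest fresh value in replicate 2 of day 0, as ERG13 did, while 36.9% of all lncRNAs tested did so. XLOC_002302, chosen by position, had its lowest fresh value in replicate 3. A choice by correlation with ERG13 favours lncRNAs that are low in that replicate 2 and in storage. Neither this count, its contrast with XLOC_002302 nor the lower calls are therefore independent evidence. The other cis pair of the same list, formate dehydrogenase FDH (EVM0012176) and XLOC_002861, had a within-day r of 0.641.

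The genes most like each member were found by the root mean square difference between centred log2 profiles over the 12 libraries, among genes with a mean of at least 10 FPKM. For ERG13, the nearest of 8052 mRNAs were EVM0004144 at 0.261, EVM0011844 at 0.327 and the ergosterol mRNA EVM0004880 at 0.371. EVM0004144 was at 62.2, 12.8 and 56.1 FPKM on day 0, low in replicate 2 as ERG13 was, and had means of 10.2 FPKM on day 8, 8.08 on day 16 and 7.26 on day 24. The nearest of 829 lncRNAs were XLOC_005934 at 0.547, XLOC_003470 at 0.571 and XLOC_002923 at 0.588, all from the list of trans lncRNAs. The study chose that list by correlation with ERG13 over these same libraries, so their nearness is not independent of it. XLOC_002302 ranked 182 of the 829 lncRNAs, at 1.11.

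For XLOC_002302, the nearest of 8053 mRNAs were EVM0012826 and EVM0009128, both at 0.555, and EVM0012959 at 0.576. ERG13 ranked 403 among them. EVM0012826 was at 97.3, 29.1 and 24.5 FPKM on day 0 and at 7.41, 15.7 and 3.001 on day 8, so that its replicate 1 was highest in the fresh group and its replicate 3 lowest on day 8, as for the lncRNA. The nearest of 828 lncRNAs were XLOC_012659 at 0.733, XLOC_005747 at 0.791 and XLOC_004849 at 0.822. XLOC_012659 and XLOC_004849 are themselves on the list of trans lncRNAs of ERG13. No product names are given for these genes in the sources used here. Likeness here is a description across libraries that share depth and denominators within a table.

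Across the 12 libraries, the factors that match the typical mRNA lay between 0.983 and 1.02, and those from lncRNAs between 0.846 and 1.13. Of 1003 lncRNAs, 989 to 999 were above 0 in the fresh libraries, 825 to 853 on day 8, 821 to 876 on day 16 and 914 to 995 on day 24. The number of mRNAs above 0 also differed by day, with 12636 to 12886 of 13103 in the fresh libraries, 11005 to 11056 on day 8, 10956 to 11061 on day 16 and 11133 to 12789 on day 24. In the study's sequencing summary, unique mapping was higher in all libraries of days 0 and 16 than in those of days 8 and 24. The part of these numbers and of mapping in the courses of XLOC_002302 and ERG13 was not tested. ERG13 and XLOC_002302 were above 0 in all 12 libraries.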

How the data were processed

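Per the submitters' processing notes and the methods, the authors used cutadapt 2.7 for trimming, FastQC 0.11.8 for read quality, HISAT2 2.1.0 for alignment to the genome and StringTie 1.3.3b for FPKM. The deposited FPKM values of mRNAs and lncRNAs stand in separate tables, 1 column per library, and were not pooled. Each library was scaled by median of ratios, with factors from the mRNAs above 0 in all libraries. Genes at 1 FPKM or more in at least 3 libraries were tested (10962 mRNAs and 1002 lncRNAs, 2141 and 1 removed) with limma 3.58.1 in R 4.3.3, in a model of the 4 days with the trend option and p-values adjusted within each class by Benjamini-Hochberg. The thresholds are those of the methods. Whole reads were recovered from the steps of the FPKM values. A step was doubled where nearly all numbers above 0 of a library were even, which was done 2 times for lncRNAs. No count test was run, because the files hold FPKM. Ratios and co-movement were tested by exact two-sided permutation over libraries in Python 3.11.15 with numpy 2.4.6 and scipy 1.17.1, and figures were drawn with matplotlib 3.10.9.

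The named genes were ERG13, XLOC_002302, the 5 other ergosterol mRNAs the study names, the 15 trans lncRNAs it lists for ERG13 (as ranges, with the highest and lowest within-day r), the FDH pair, and the 3 nearest mRNAs and lncRNAs of each member. Members and lists were chosen with earlier results of these data known. The alternatives were a pseudocount of 0.1 (for the ratio also none), no filter, a mean of at least 5 FPKM, lncRNA-based factors, quantile normalization, no scaling, linear FPKM, fits restricted to the days compared, a block for the replicate number, and libraries or days left out. Common denominators for both tables were added after the data were seen. The fits and permutations were tested on simulated data. Identifiers matched none of the reference table of genes, so no sequence, position or product name was taken from it.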

Additional observations from a re-analysis of the deposited data

How the results depend on the processing

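The fall of ERG13 on day 16 and of XLOC_002302 on days 8 and 24 against day 0 passed the test under all the alternatives run. A fit of only the 2 days compared left ERG13 at −1.90 on day 8 (adjusted p = 0.0647, limma) and at −2.19 on day 24 (adjusted p = 0.0717, limma), both no longer called, and called 3 of the 5 other ergosterol mRNAs lower on day 8. XLOC_002302 between days 16 and 24 became called at −1.43 with quantile normalization, and at −1.54 in the fit of those days and with the replicate number as a block (adjusted p = 0.0310, limma). On common denominators its day 24 minus day 8 reversed to 0.61, and called lncRNAs rose to 557 for day 24 minus day 8 and 496 for day 24 minus day 16. Quantile normalization called 227 lncRNAs on day 24 against day 0, and 1 mRNA between days 16 and 8. The within-day r of the pair turned negative with quantile normalization (−0.0945, exact permutation p = 0.888) and without day 0 (−0.570, exact permutation p = 0.157, the same 9 libraries as without its replicates 1 and 3). The cause of these changes was not tested.

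With each library left out in turn, ERG13 minus day 0 ran from −2.72 to −1.41 on day 8 and from −3.01 to −1.70 on day 24, and its day 24 minus day 16 from −0.0053 to 0.33. XLOC_002302 ran from −3.03 to −1.69 for day 8 minus day 0, from −3.87 to −2.52 for day 24 minus day 0, from −2.32 to −0.98 for day 16 minus day 0 and from −1.68 to −1.41 for day 24 minus day 16. The within-day r ran from −0.528 (without replicate 2 of day 0) to 0.484 (without replicate 3 of day 0), with exact permutation p between 0.0787 and 1. The F of the ratio ran from 0.742 to 4.57 (exact permutation p between 0.0580 and 0.564). Counts ran from 0 to 29 called mRNAs between days 16 and 8, from 44 to 225 called lncRNAs on day 24 against day 0, and from 2 to 11 between days 16 and 8.

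Replicate numbers were not taken to pair the libraries, since the labels name no shared batch or fruiting body and most day pairs did not correlate. Deviations of same-numbered libraries correlated at −0.371 to 0.351 over 18 pairs in mRNAs, with 4 above 0.1, and at −0.177 to 0.388 in lncRNAs, also with 4 above 0.1. Of these 4, 3 were the lncRNAs of days 0 and 24 (0.345, 0.180 and 0.388), where each library correlated best with its own number, while in the mRNAs of the same libraries replicate 3 gave −0.0371. For XLOC_002302 on day 24 against day 0, the block left the call in place (adjusted p = 0.00257, limma). With the number as a replicate block, the within-day r was 0.496 (exact permutation p = 0.549) and the F of the ratio 3.44 (exact permutation p = 0.130).

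Depth limits XLOC_002302 most in replicate 3 of day 8, with 88 reads. With 3 libraries per day, the test of a single value between 2 days could not go below an exact permutation p of 0.10, so differences between 2 days rest on the fit across all genes.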
